A study of Mus musculus with 2 samples.

Results

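Protein kinase C (PKC) is a family of serine/threonine kinases, and the 8 isoform genes described here are Prkca, Prkcb, Prkcd, Prkce, Prkch, Prkcq, Prkci and Prkcz. They were taken by symbol from the gene column of the deposited matrices, where each of the 8 was found once among 32285 genes. The libraries came from subcutaneous tumours grown in C57BL/6 mice from CMT167R, a mouse lung cancer line described as resistant to anti-PD1 and labelled wild type, with 1000000 cells injected per mouse. The first group was given PKCi, a compound known here by that label alone, at 3 mg/kg daily by intraperitoneal injection, and the control group was given solvent. Tumours were taken when control tumours had reached 400 mm3. Each group is 1 single-cell library made with 10x 3′ v3.1 chemistry, and the labels do not give the number, sex or age of the mice, the length of treatment or any pooling.

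PKC isoforms act downstream of receptors that turn on phospholipase C. The conventional isoforms (Prkca, Prkcb) need both calcium and diacylglycerol, a second group (Prkcd, Prkce, Prkch, Prkcq) needs diacylglycerol but not calcium, and the atypical isoforms (Prkci, Prkcz) need neither and work in cell polarity complexes. In leukocytes PKC links antigen receptors and Fc receptors to NF-κB and to the phagocyte oxidase, and in epithelial tumours several isoforms are studied as drivers or brakes of growth. A PKC inhibitor blocks the kinase protein, whereas the values below are of the transcripts.

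With 1 library per group there was no replicate, so no test between treatments was made. Values are given as counts of unique molecular identifiers (UMIs, 1 per captured transcript end) per 1000000 UMIs of a cell class (CPM), with a 95% Poisson interval that covers counting error only. A transcript captured at its 3′ end gives 1 tag whatever its length, so CPM can be set side by side across genes as far as such capture was alike. Whether reads from introns entered the counts is not given. The member genes span from 30857 bases (Prkcd) to 490135 bases (Prkce), and the part of gene length in comparisons between members was not tested. A gene is called higher or lower where its PKCi over control ratio is at least 1.5 times in either direction and the ratio's counting interval excludes 1, among genes with at least 20 UMIs over both libraries. A call describes these 2 libraries, not the treatment.

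After filters 7004 PKCi and 6223 control cells remained, with a median of 29427.5 and 32897 UMIs per cell, and 18 of the kept cell barcodes occurred in both libraries. Most cells, 5296 in PKCi and 4819 in control, formed a main population in which Krt8 stood at 482 and 382 CPM and Ptprc, a gene of leukocytes, at 1.13 and 0.911 CPM. Krt8 is an epithelial keratin, but Epcam, another epithelial gene, was at 0.00492 and 0.00503 CPM, so the cells are called the main population and not by a tumour name. The other cells fell into classes that held their own fixed markers: monocyte-like (474 PKCi and 496 control cells), macrophage-like (514 and 234), neutrophil-like (166 and 274), T-like (118 and 64), NK-like (50 and 36), dendritic-like (65 and 27), endothelial-like (31 and 19) and fibroblast-like (26 and 24). A further 264 PKCi and 230 control cells stayed unnamed. The boundary between monocyte-like and macrophage-like cells moved with the clustering settings, and classes under 100 cells in a library rest on few cells.

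RNA set free from the abundant main population can be captured with other cells. Krt8 in leukocyte classes stood at 6.83% to 12.9% of its main population level in PKCi and 6.72% to 11.7% in control. Rhox5, another gene of the main population, stood there at 7.88% to 13.8% in PKCi and 3.03% to 16.3% in control. In fibroblast-like cells Krt8 stood at 20.7% in PKCi and 15.2% in control, and Rhox5 at 18.9% and 9.60%. Endothelial-like cells had Krt8 at 20.9% and 5.92%, and Rhox5 at 21.6% and 6.03%. The part of free RNA in the PKC levels of these classes was not tested. The text says where a level lay below 10% of a gene's highest class, a round limit and not one that these values set, and the part of free RNA in such levels was not tested.

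Sequences around the transcription starts of Prkca, Prkcb and Prkcd are shown because these 3 members were called higher in macrophage-like cells. RefSeq windows on GRCm38.p6, 250 bases before to 50 bases after the start, existed for 6 of the 8 members. They are printed 5′ to 3′ on the gene's strand, with GC box letters (GGGCGG or its reverse complement) in capitals. Prkca lies on the minus strand at chr11:108343839-108344138, Prkcb on the plus strand at chr7:122288875-122289174, and the 2 starts of Prkcd on the minus strand at chr14:30626159-30626458 and chr14:30610261-30610560.
Prkca: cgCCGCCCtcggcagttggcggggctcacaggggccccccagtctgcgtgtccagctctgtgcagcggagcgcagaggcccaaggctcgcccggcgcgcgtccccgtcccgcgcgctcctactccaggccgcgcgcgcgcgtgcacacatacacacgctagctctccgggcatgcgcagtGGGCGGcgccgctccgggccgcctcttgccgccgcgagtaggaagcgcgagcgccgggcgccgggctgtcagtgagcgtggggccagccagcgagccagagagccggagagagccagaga
Prkcb: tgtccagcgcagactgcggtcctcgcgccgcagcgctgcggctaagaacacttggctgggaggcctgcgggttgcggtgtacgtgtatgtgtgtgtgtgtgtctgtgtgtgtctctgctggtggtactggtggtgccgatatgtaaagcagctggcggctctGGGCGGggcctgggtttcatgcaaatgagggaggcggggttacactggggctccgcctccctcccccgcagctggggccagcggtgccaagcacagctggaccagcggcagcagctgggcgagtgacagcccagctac
Prkcd, start 1: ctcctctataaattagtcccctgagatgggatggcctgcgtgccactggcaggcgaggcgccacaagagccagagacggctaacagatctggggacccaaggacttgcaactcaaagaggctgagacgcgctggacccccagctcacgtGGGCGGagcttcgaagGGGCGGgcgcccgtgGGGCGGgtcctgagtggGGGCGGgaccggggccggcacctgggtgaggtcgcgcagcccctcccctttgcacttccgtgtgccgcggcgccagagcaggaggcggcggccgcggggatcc
Prkcd, start 2: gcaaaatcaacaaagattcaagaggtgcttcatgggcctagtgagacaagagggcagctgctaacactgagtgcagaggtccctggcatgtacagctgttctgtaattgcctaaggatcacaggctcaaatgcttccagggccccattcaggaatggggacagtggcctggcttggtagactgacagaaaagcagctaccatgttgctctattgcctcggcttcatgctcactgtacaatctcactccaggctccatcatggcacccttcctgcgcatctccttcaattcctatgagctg
The Prkca window was 75.3% G or C and held 2 GC boxes, and the Prkcb window was 65.3% and held 1. The first Prkcd start was 69.3% G or C with 4 GC boxes, while its second start was 51.3% with none. GC boxes occurred in 35.7% of all 32851 RefSeq windows of this length. Neither the AP-1 letters TGANTCA nor the PU.1-type letters GAGGAAGT, searched on both strands, were found in any of the 9 windows of the 6 members, against 7.81% and 3.20% of all windows. These are letter matches in 1 window, and their absence says nothing about binding of a factor.

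The conventional isoform Prkca, which is widespread in tissues, was highest in T-like cells. It stood at 299 CPM (258 to 345) in PKCi T-like cells and 287 CPM (236 to 345) in control T-like cells, apart from every other class in both libraries. NK-like cells held 136 and 61.0 CPM and fibroblast-like cells 95.6 and 131 CPM, in PKCi and control. Main population cells had 71.3 CPM (70.2 to 72.5) in PKCi and 85.5 CPM (84.2 to 86.8) in control. Dendritic-like cells had 63.2 CPM in PKCi and 8.20 CPM in control, the control value from 2 UMIs. Macrophage-like cells had 34.3 and 18.0 CPM, and the endothelial-like, monocyte-like and neutrophil-like levels lay between 2.84 and 14.4 CPM in PKCi and between 3.19 and 8.0 CPM in control. The transcript was thus shared by lymphocytes, fibroblast-like cells and the main population, while the endothelial-like, monocyte-like and neutrophil-like levels were under 10% of the T-like level. In control the macrophage-like and dendritic-like levels were also under 10% of the T-like level. With cells thinned to 2000 UMIs each, 41 of 107 PKCi and 31 of 62 control T-like cells had a Prkca UMI, and 11.98% and 13.7% of main population cells. Without thinning these shares were 52.5% and 71.9% of T-like cells and 69.8% and 77.5% of main population cells, which had a median of 35259.5 and 38091 UMIs per cell against 4177 and 4665 in T-like cells. Thinning kept 5160 of 5296 PKCi and 4797 of 4819 control main population cells, and 84 of 166 and 232 of 274 neutrophil-like cells. The gene lies at chr11:107933387-108343928 on the minus strand (GRCm38, GENCODE M21). The counted genes Gm11657, Gm11655 and Apoh overlap it on the other strand, none of them within 1000 bases of its 3′ end.

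Prkcb, the conventional isoform best known from B cells and myeloid cells, was a leukocyte transcript here. Neutrophil-like cells had 193 CPM (149.8 to 245) in PKCi and 112 CPM (92.2 to 135) in control, the highest class in both libraries, with an interval that overlapped that of T-like cells in control. Monocyte-like cells had 124 and 80.3 CPM and macrophage-like cells 119.9 and 76.8 CPM, neighbours whose intervals overlapped. T-like cells had 97.6 and 87.1 CPM, below both classes in PKCi and above them in control, with overlapping intervals for the monocyte-like and macrophage-like classes. NK-like cells had 86.8 and 50.8 CPM. The main population had 2.21 CPM in PKCi and 2.19 CPM in control, which is 1.78% and 2.72% of the monocyte-like level. The 6 leukocyte genes used as a gauge (Ptprc, Tyrobp, Fcer1g, Laptm5, Coro1a and Lyz2) stood in the main population at 0.210% to 0.446% of their monocyte-like level. Prkcb in the main population therefore stood above that gauge, though at a very low level. Of thinned neutrophil-like cells, 20.2% in PKCi and 19.8% in control had a Prkcb UMI, against 0.349% and 0.521% of main population cells. The unthinned shares were 21.7% and 25.2% of neutrophil-like cells and 7.97% and 8.42% of main population cells. The gene lies at chr7:122288751-122634402 on the plus strand.

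Prkcd, a diacylglycerol-dependent isoform known for roles in apoptosis and in the phagocyte oxidase, was the most abundant member in the monocyte-like and macrophage-like classes. Monocyte-like cells had 232 CPM (217 to 248) in PKCi and 189 CPM (177 to 203) in control, apart from macrophage-like cells with 199.8 CPM (189 to 211) and 128 CPM (117 to 139). Neutrophil-like cells had 179 and 74.0 CPM, and dendritic-like cells 164 and 152 CPM. The main population had 19.98 CPM (19.4 to 20.6) in PKCi and 20.2 CPM (19.6 to 20.8) in control, 8.61% and 10.7% of the monocyte-like level and well above the leukocyte gauge. T-like cells had 25.6 and 12.8 CPM from 16 and 5 UMIs, with a control level below 10% of the monocyte-like level. Prkcd was thus highest in the myeloid classes, with a main population level that lay under 10% of the monocyte-like level in PKCi and just over it in control. Of thinned monocyte-like cells, 35.3% in PKCi and 32.9% in control had a Prkcd UMI, against 3.84% and 4.50% of main population cells (74.9% and 73.4% against 47.4% and 52.0% without thinning). The gene lies at chr14:30595354-30626210 on the minus strand.

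Prkce, a diacylglycerol-dependent isoform with a record as an oncogene in epithelial cells, stood at similar levels in several classes. Endothelial-like cells had 80.2 CPM (62.1 to 102) in PKCi and 123 CPM (91.0 to 163) in control. Fibroblast-like cells had 71.7 and 97.6 CPM, T-like cells 80.01 and 66.6 CPM, and the main population 61.1 CPM (60.0 to 62.2) and 71.0 CPM (69.8 to 72.2). The counting intervals of neighbours in this order overlapped in both libraries, so the order of neighbours cannot be read. The endothelial-like interval lay above that of the main population in control and overlapped it in PKCi. The macrophage-like level of 16.3 CPM in PKCi and 13.2 CPM in control stood below the monocyte-like level of 45.2 and 38.5 CPM. The gene lies at chr17:86167785-86657919 on the plus strand, with 2 counted genes overlapping on the other strand away from its 3′ end.

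Prkch, the diacylglycerol-dependent eta isoform, had the highest level of any member in any class. T-like cells had 531 CPM (476 to 592) in PKCi and 438 CPM (375 to 509) in control. Endothelial-like cells had 220.2 CPM (189.6 to 254) and 346 CPM (291 to 409), and NK-like cells 276 and 260.2 CPM. Monocyte-like cells had 62.3 and 60.5 CPM, macrophage-like cells 49.9 and 45.9 CPM and neutrophil-like cells 102 and 66.0 CPM. In the main population the level was 0.345 CPM in PKCi and 0.347 CPM in control, 0.553% and 0.573% of the monocyte-like level and close to the leukocyte gauge. Prkch thus marked lymphocytes and endothelial-like cells and was near background in the main population. Of thinned T-like cells, 48.6% in PKCi and 35.5% in control had a Prkch UMI, against 0.0581% and 0.0625% of main population cells (66.1% and 65.6% against 1.21% and 1.29% without thinning). It lies at chr12:73584796-73778185 on the plus strand.

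Prkcq, which sits at the T cell synapse and links the T cell receptor to NF-κB, was found in lymphocytes. T-like cells had 147 CPM (119 to 181) in PKCi and 97.4 CPM (68.9 to 134) in control, and NK-like cells 90.4 CPM (67.3 to 119) and 42.7 CPM (26.4 to 65.2). Both classes stood apart from all others in both libraries, and from each other in control alone. The main population held 10 Prkcq UMIs in PKCi and 6 in control, and no UMI was counted in dendritic-like or fibroblast-like cells of either library. A count of 0 allows up to 5.12 CPM in PKCi and 12.3 CPM in control dendritic-like cells, and 6.52 and 6.23 CPM in fibroblast-like cells. No class outside the lymphocytes had a level above 4.0 CPM. In NK-like cells the 10 T cell markers summed to 204 CPM in PKCi and 260.2 CPM in control, with 1 and 2 of them at 50 CPM or more, while Cd8a, Cd8b1, Cd4, Bcl11b and Themis were at 0 in both libraries. The part of these markers in the NK-like Prkcq level was not tested. Of thinned T-like cells, 25.2% in PKCi and 17.7% in control had a Prkcq UMI (39.0% and 29.7% without thinning, against 0.170% and 0.125% of main population cells). The gene lies at chr2:11172108-11301222 on the plus strand.

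The atypical isoforms were low. Prkci, a polarity kinase that is an oncogene in several carcinomas, was highest in the main population, with 24.3 CPM (23.7 to 25.0) in PKCi and 24.0 CPM (23.3 to 24.7) in control. Fibroblast-like cells had 19.5 and 16.6 CPM and macrophage-like cells 14.7 and 15.1 CPM, where the fibroblast-like intervals overlapped those of the main population and the macrophage-like ones did not. Neutrophil-like cells had 8.51 and 19.0 CPM, with wide intervals. Of thinned main population cells, 4.24% in PKCi and 4.44% in control had a Prkci UMI (52.0% and 55.6% without thinning). Prkcz, the other atypical kinase, had 9 UMIs in PKCi T-like cells (14.4 CPM) and 7 in control T-like cells (17.9 CPM), against 1.80 and 2.04 CPM in the main population. Its level in each other class was no more than 2.39 CPM in either library. Prkci lies at chr3:30995747-31052959 on the plus strand and Prkcz at chr4:155260129-155361361 on the minus strand.

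**Figure D1:**
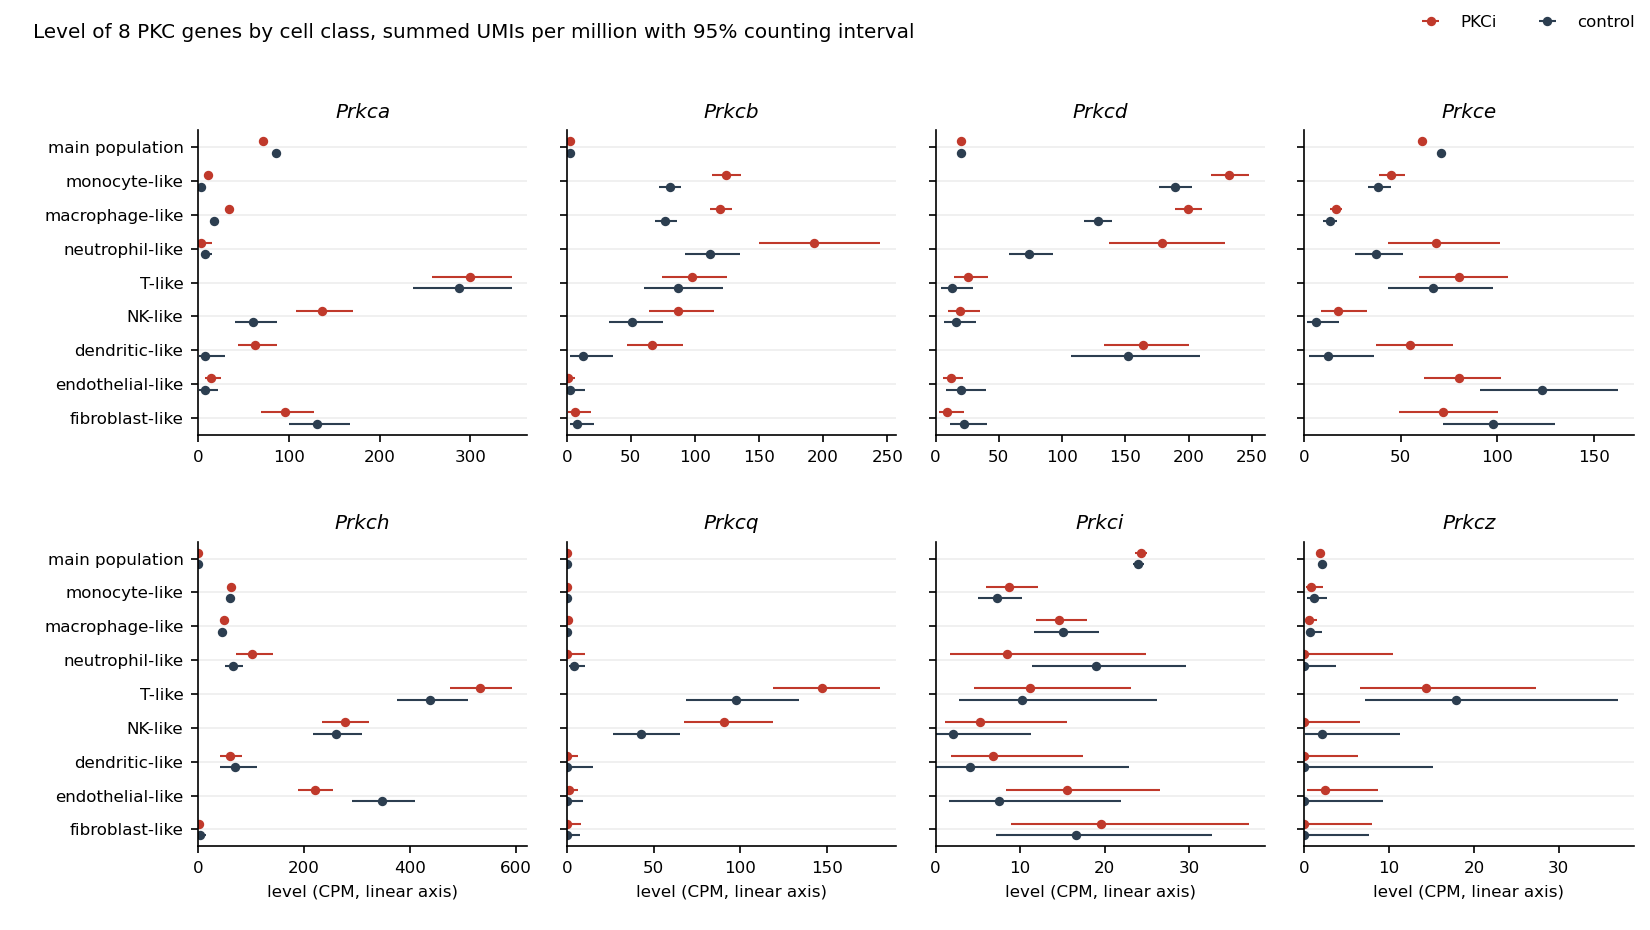
CPM (horizontal axis) of each of the 8 PKC isoforms in 9 cell classes (rows), with the PKCi point above the control point and bars for the 95% counting interval. Prkch and Prkca peak in T-like cells, Prkcb and Prkcd in myeloid classes, and Prkci in the main population.

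Each class had its own mixture of isoforms, with the limit on comparing genes given above. The 8 genes summed to 1207 CPM in PKCi and 1017 CPM in control T-like cells, the highest sums, and to 181 and 205 CPM in the main population, the lowest. Main population PKC transcripts were 39.4% Prkca in PKCi and 41.6% in control, followed by Prkce (33.7% and 34.6%), Prkci (13.4% and 11.7%) and Prkcd (11.03% and 9.85%). Monocyte-like PKC transcripts were 48.0% Prkcd in PKCi and 49.8% in control, with 25.6% and 21.1% Prkcb. In T-like cells Prkch gave 44.0% and 43.1%, Prkca 24.8% and 28.2%, and Prkcq 12.2% and 9.57%. In endothelial-like cells Prkch gave 63.4% and 68.3%. Atypical isoforms made up 14.4% of the main population's PKC transcripts in PKCi and 12.7% in control, against 1.95% and 2.21% in monocyte-like cells.

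**Figure D2:**
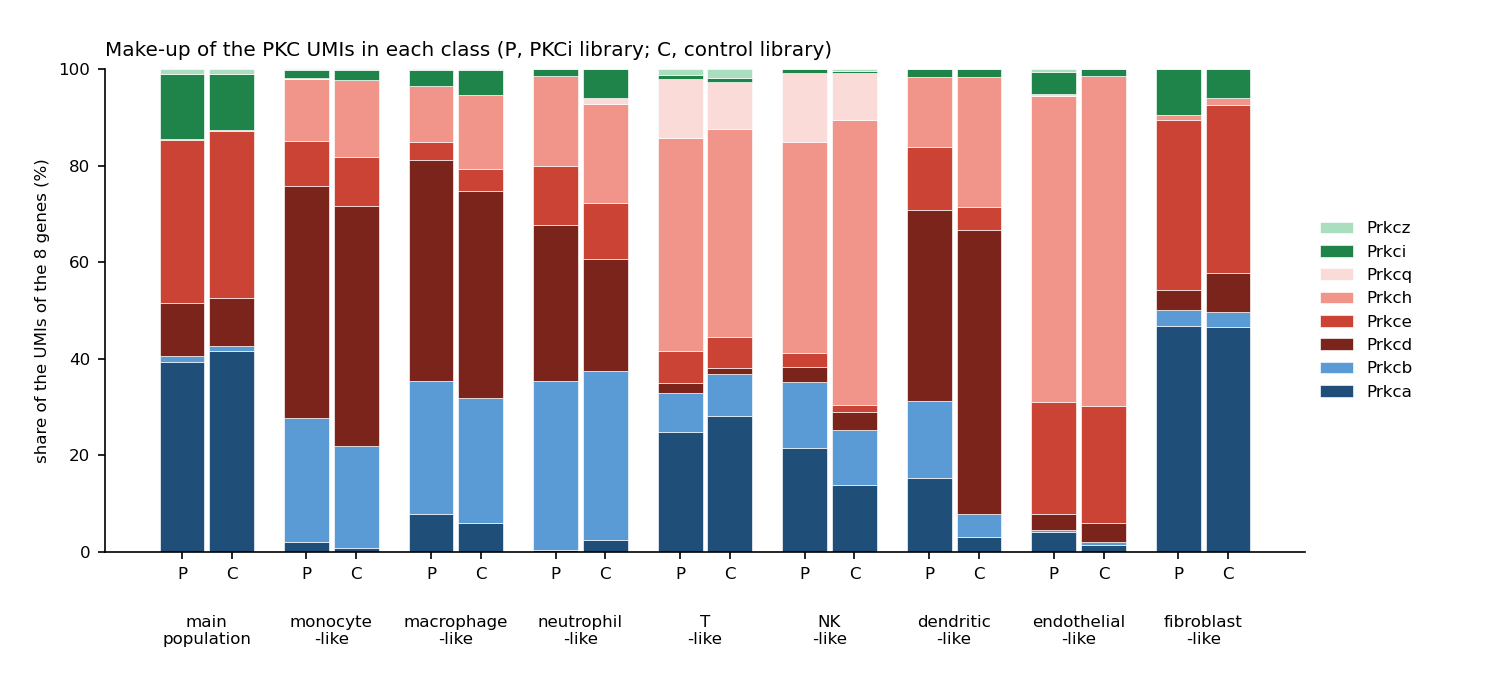
Share of the UMIs of the 8 isoforms (vertical axis, %) that each isoform contributed in each cell class, with PKCi (P) left of control (C). Prkca and Prkce fill most of the main population bars, Prkcd and Prkcb the monocyte-like and macrophage-like bars, and Prkch most of the endothelial-like bars.

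In the main population no member was called between PKCi and control. Of 7 members with enough UMIs (all but Prkcq), 0 were called, where 8.61% of the 17615 genes measured there were called in either direction. Prkca was at 71.3 CPM in PKCi and 85.5 CPM in control, a ratio of 0.835 (0.816 to 0.853), and Prkce at 61.1 and 71.0 CPM, a ratio of 0.861 (0.840 to 0.882). Their counting intervals excluded 1, but both ratios were nearer to 1 than the threshold. Prkcd (0.989), Prkci (1.01), Prkcb (1.01), Prkch (0.993) and Prkcz (0.885, 0.766 to 1.02) had ratios closer to 1. The log2 ratio of the median gene in this class was -0.03.

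The Prkca ratio below 1 was seen across the main population clusters with enough cells in both libraries. Over the 10 main population clusters with at least 100 cells per library, Prkca ran from 16.3 to 121 CPM in PKCi and from 21.7 to 138 CPM in control. Both lowest values were in the cluster led by the globin gene Hbb-bs and both highest in the cluster led by Schip1. The Hbb-bs-led cluster held 559 PKCi and 313 control cells. Among the clusters left out for size, that led by Adm, Lcn2 and Ndrg1 held 94 PKCi and 387 control cells. The part of cluster make-up in the class-wide ratios was not tested. The PKCi over control ratio of Prkca was below 1 in 10 of 10 clusters, with an interval below 1 in 7, and lay between 0.753 and 0.966. For Prkce the ratio was below 1 in 9 of 10 clusters, with an interval below 1 in 7, and lay between 0.787 and 1.09. The span of Prkca and Prkce over clusters was thus wider than the gap between the libraries. Prkce ran from 11.5 to 89.0 CPM in PKCi and from 10.5 to 110.0 CPM in control, with its lowest and highest values in the same clusters as Prkca. Prkcd ran from 10.8 to 25.4 CPM in PKCi and from 10.3 to 26.5 CPM in control, and Prkci from 12.7 to 32.3 and from 11.2 to 30.2 CPM. Prkcd and Prkci were also lowest in the Hbb-bs-led cluster. That cluster had the lowest median UMIs per cell of the 10 (21307.5, against 47490.5 in the Schip1-led cluster), and the part of depth in these values was not tested.

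**Figure D3:**
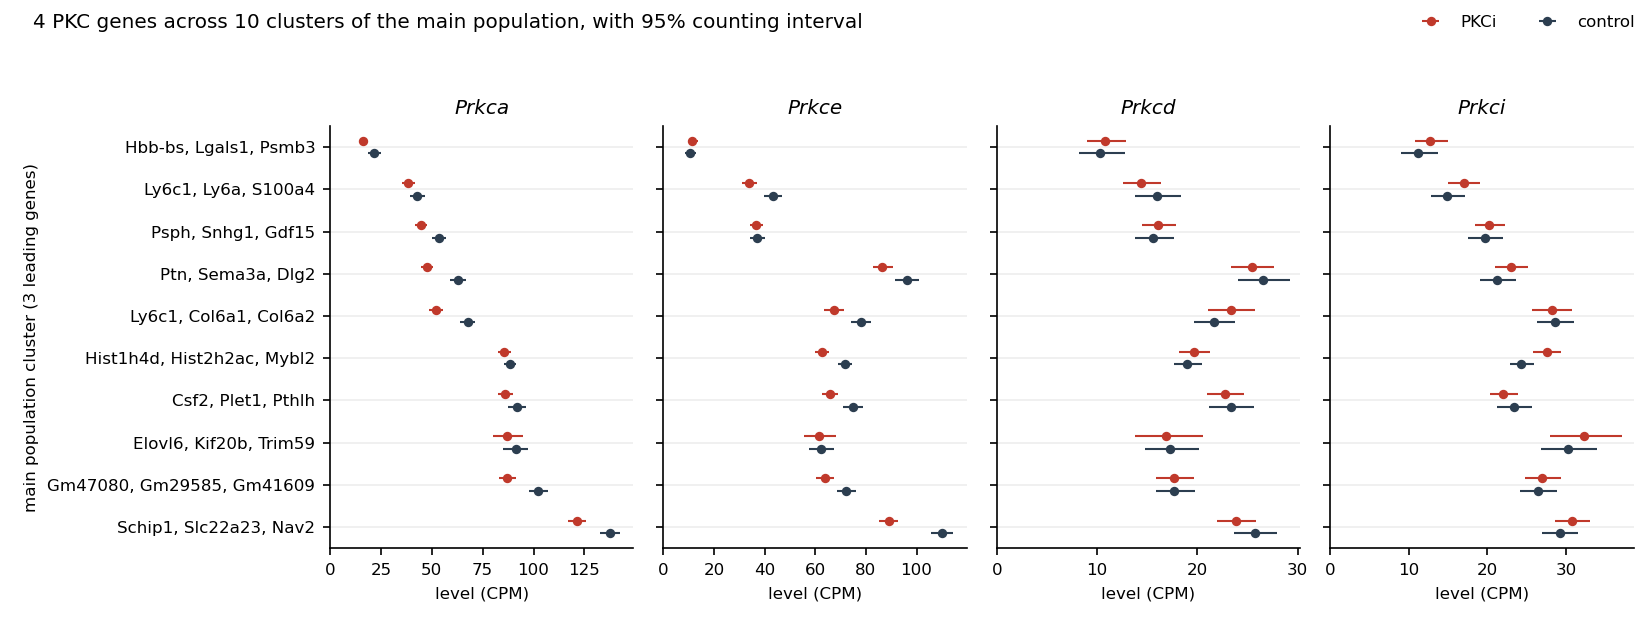
CPM of Prkca, Prkce, Prkcd and Prkci (horizontal axis) in 10 main population clusters (rows), named by their 3 leading genes, with the PKCi point above the control point and bars for the 95% counting interval. Prkca spans 16.3 to 121 CPM in PKCi and 21.7 to 138 CPM in control.

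In macrophage-like cells Prkca, Prkcb and Prkcd were called higher in PKCi, which is 3 of the 6 members measured, where 10.0% of 11305 genes were called higher and 14.8% either way. Prkcb had 119.9 CPM in PKCi and 76.8 CPM in control and so a ratio of 1.56 (1.37 to 1.78). The Prkcd levels of 199.8 CPM in PKCi and 128 CPM in control also gave 1.56 (1.41 to 1.73). For Prkca 34.3 and 18.0 CPM gave 1.91 (1.46 to 2.51), with a control level below 10% of the T-like level. Prkch (1.09), Prkce (1.24) and Prkci (0.970) were not called. Krt8 was at 42.2 CPM in PKCi and 29.3 CPM in control macrophage-like cells, which is 8.75% and 7.68% of the main population level, against 48.1% and 21.1% for Prkca. The 10 T cell markers summed to 7.71 and 5.04 CPM there. The part of free RNA and of T cells in the Prkca ratio was not tested. Relative to the median gene Prkcb came to 1.496 and Prkcd to 1.497 times, just under the threshold. With at most 10% mitochondrial UMIs, Prkca came to 1.34 times and was not called, with 497 PKCi and 159 control cells in the class.

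In monocyte-like cells Prkca and Prkcb were called higher in PKCi, 2 of the 6 members measured, where 11.2% of 10395 genes were called higher and 17.1% either way. Prkcb was at 124 CPM in PKCi and 80.3 CPM in control, a ratio of 1.55 (1.34 to 1.78). Prkca, at 10.5 and 3.19 CPM, had a ratio of 3.29 (1.76 to 6.53), and its PKCi level was 3.57% of that in the highest class. It stood at 14.7% of the main population level in PKCi and 3.73% in control, against 6.83% and 7.22% for Krt8, and the part of free RNA in it was not tested. Prkcd had 232 and 189 CPM and a ratio of 1.23 (1.11 to 1.35), and was not called. The median gene of this class was itself 0.15 higher on the log2 scale in PKCi, and relative to it Prkcb came to 1.39 times. When monocyte-like and macrophage-like cells were summed, the ratio was 1.55 for Prkcb, which stayed called, and 1.33 for Prkcd, which did not.

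In neutrophil-like cells Prkcb, Prkcd, Prkce and Prkch were called higher in PKCi, 4 of the 5 members measured, where 17.8% of 4862 genes were called higher and 24.8% either way. Prkcd was at 179 CPM (137 to 229) in PKCi and 74.0 CPM (58.1 to 92.9) in control, a ratio of 2.42 (1.70 to 3.43). Prkcb had 193 and 112 CPM and a ratio of 1.72 (1.26 to 2.35). The shares of thinned neutrophil-like cells with a Prkcb UMI, given above, were nearly alike in PKCi and control. Prkce, at 68.1 and 37.0 CPM, had a ratio of 1.84 (1.05 to 3.16), and Prkch, at 102 and 66.0 CPM, one of 1.55 (1.001 to 2.36). Prkci had 3 UMIs in PKCi and 19 in control, a ratio of 0.448 whose interval included 1. The median gene was 0.19 higher on the log2 scale in PKCi, and relative to it Prkcd came to 2.12 times and Prkcb to 1.51 times. Prkce came to 1.62 times and Prkch to 1.36 times relative to the median gene, where neither was called.

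The neutrophil-like cells of the 2 libraries were mostly different clusters. The cluster led by G0s2, Hdc and Cxcr2 held 136 PKCi and 25 control cells, that led by Retnlg, S100a8 and S100a9 held 1 and 96, and that led by Cstdc4, Stfa2l1 and Stfa1 held 29 and 153. Within the G0s2-led cluster Prkcd was at 168 CPM in PKCi and 133 CPM in control, a ratio of 1.26 (0.630 to 2.78), and Prkcb at 225 and 147 CPM, a ratio of 1.53 (0.804 to 3.22). Within the Cstdc4-led cluster Prkcd had 253 and 69.4 CPM and a ratio of 3.64 (1.76 to 7.14). Prkcb had 1 UMI in PKCi and 23 in control there, a ratio of 0.390 (0.00947 to 2.40). The Prkce ratio was 2.77 (0.680 to 24.3) in the G0s2-led cluster and 0.854 (0.0971 to 3.495) in the Cstdc4-led cluster. For Prkch the ratios were 0.912 (0.407 to 2.31) and 1.495 (0.567 to 3.36) in the same order. Of these intervals, only that of Prkcd in the Cstdc4-led cluster excluded 1. The neutrophil markers summed to 63409 CPM in PKCi and 155341 CPM in control, and the median UMIs per cell were 2003.5 and 3306. The part of cluster make-up and depth in the class-wide ratios was not tested.

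In T-like cells Prkcq was the member called, 1 of 6 measured, where 5.0% of 6254 genes were called higher, 3.55% lower and 8.55% either way. It was at 147 CPM in PKCi and 97.4 CPM in control, a ratio of 1.51 (1.03 to 2.27), at the edge of the threshold, and its interval included 1 without the cell with the most Prkcq UMIs (1.52, 0.995 to 2.37). Prkch had a ratio of 1.21 (1.01 to 1.47) and Prkca of 1.04. Among T-like cells with a Cd8a or Cd8b1 UMI (47 in PKCi, 23 in control) Prkcq was at 166 and 136 CPM, and among the other T-like cells (71 and 41) at 128 and 62.9 CPM. Among T-like cells with a UMI of the regulatory T cell gene Foxp3 (15 and 24) it was at 27.5 CPM in PKCi and 7.11 CPM in control, from 3 UMIs and 1 UMI. Prkca in those cells was at 165 and 285 CPM and Prkch at 615 and 270.3 CPM, so both stood far above Prkcq there. Cells with a Foxp3 UMI were 15 of 118 T-like cells in PKCi and 24 of 64 in control, and their part in the Prkcq ratio was not tested.

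In NK-like cells Prkca, Prkcb and Prkcq were called higher in PKCi, 3 of 4 members measured, where 8.64% of 5788 genes were called higher, 4.28% lower and 12.9% either way. Prkca was at 136 CPM (108 to 171) in PKCi and 61.0 CPM (41.1 to 87.05) in control, a ratio of 2.24 (1.45 to 3.54). Prkcq had a ratio of 2.12 (1.251 to 3.71) and Prkcb one of 1.71 (1.04 to 2.89). Prkch, the most abundant member there, had 276 and 260.2 CPM and a ratio of 1.06. The sum of the 10 T cell markers, given above, was lower in PKCi than in control NK-like cells. Lck, which is among these markers, was called higher in PKCi, at 133 and 79.3 CPM (1.68, 1.12 to 2.54). The part of T cells in the NK-like ratios was not tested. The class rests on 50 PKCi and 36 control cells.

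In dendritic-like cells Prkca, Prkcb and Prkce were called higher in PKCi, 3 of 5 members measured, where 7.67% of 5308 genes were called higher, 6.78% lower and 14.4% either way. Prkca had 37 UMIs in PKCi and 2 in control, a ratio of 7.70 (1.99 to 66.0), Prkcb had 39 and 3, a ratio of 5.41 (1.72 to 27.4), and Prkce had 32 and 3, a ratio of 4.44 (1.39 to 22.7). Prkcd, at 164 and 152 CPM (1.08), and Prkch, at 59.7 and 69.7 CPM (0.857), were not called. Krt8 was at 52.9 CPM in PKCi and 32.8 CPM in control dendritic-like cells, and Rhox5 at 64.9 and 16.4 CPM, which is 13.8% and 3.03% of its main population level. The part of these main population genes in the ratios was not tested, and the class held 65 PKCi and 27 control cells.

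Endothelial-like cells went the other way. Prkce and Prkch were called lower in PKCi, 2 of 2 members measured, where 7.65% of 7311 genes were called lower, 4.94% higher and 12.6% either way. Prkch was at 220.2 CPM in PKCi and 346 CPM in control, a ratio of 0.636 (0.507 to 0.799), and Prkce at 80.2 and 123 CPM, a ratio of 0.652 (0.445 to 0.963). A single control cell of 19 gave 35.5% of the control Prkch UMIs and 36.7% of the Prkce UMIs. Without each library's cell with the most UMIs of the gene, the ratios were 0.752 (0.577 to 0.986) for Prkch and 0.923 (0.589 to 1.47) for Prkce, and neither was called. Krt8 was at 101 CPM in PKCi and 22.6 CPM in control endothelial-like cells, Rhox5 was at 102 and 32.6 CPM, and the macrophage markers summed to 138 and 364 CPM, with a part in the ratios that was not tested. In fibroblast-like cells Prkca (0.730) and Prkce (0.734) were measured and 0 of 2 were called, where 7.95% of 6173 genes were called higher, 12.3% lower and 20.3% either way.

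**Figure D4:**
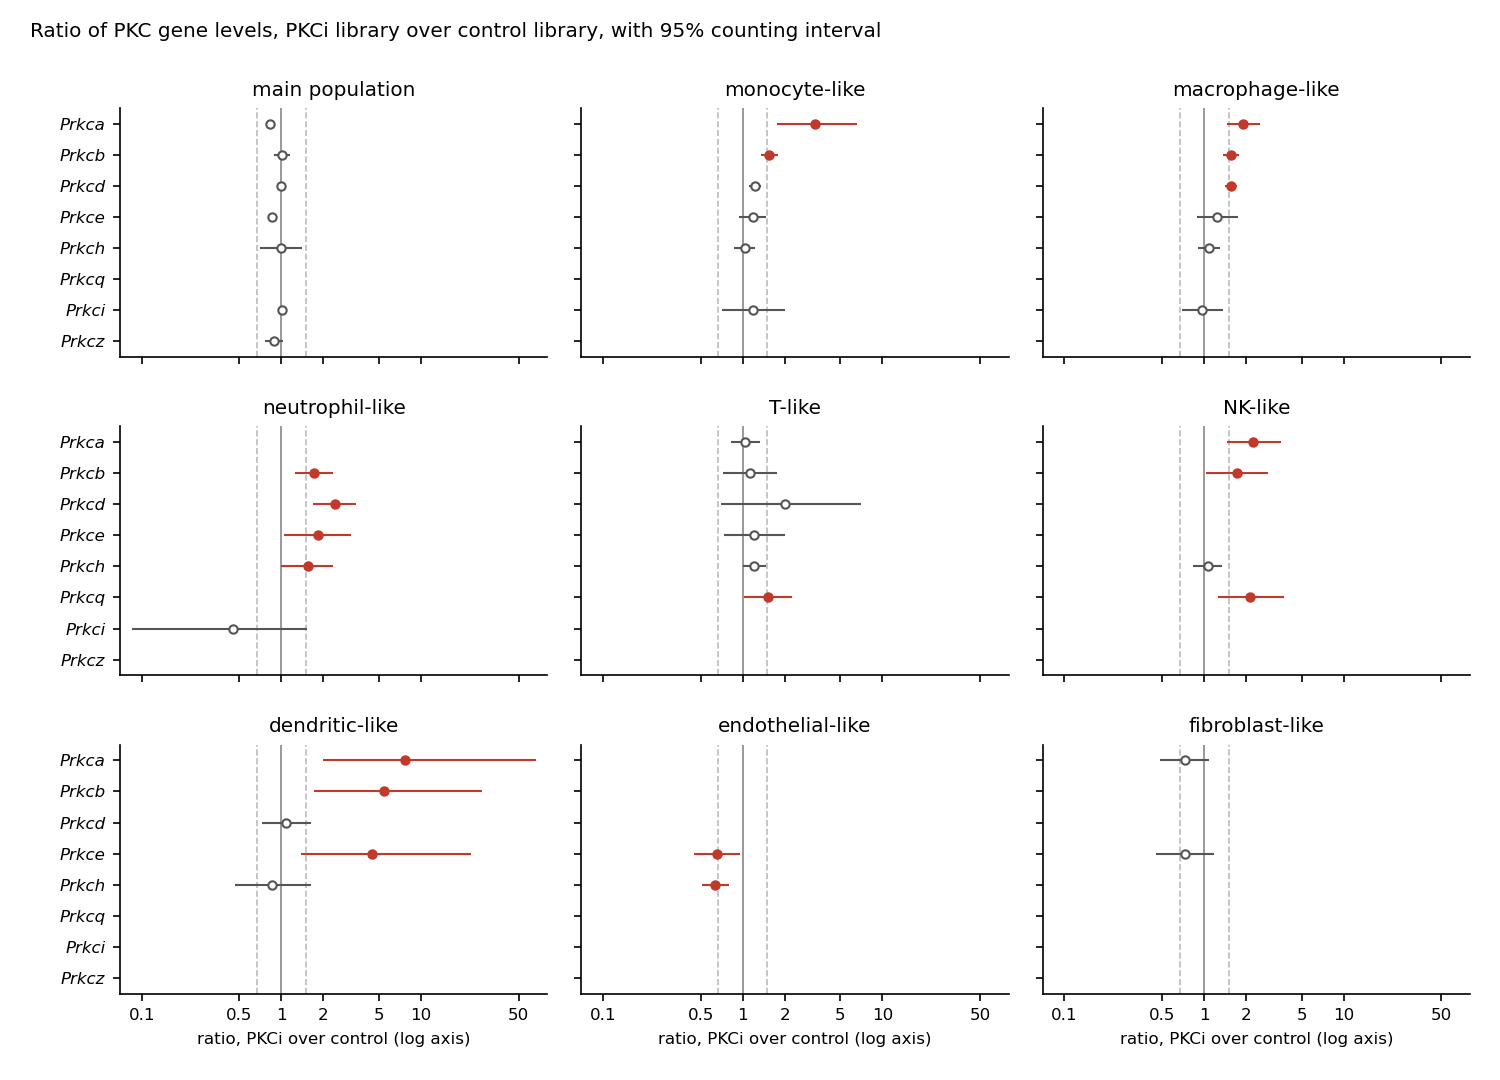
PKCi over control ratio of each member (horizontal log axis) in 9 cell classes, with bars for the 95% counting interval and dashed lines at 1.5 times in either direction; filled red points are called. Calls to the right appear in the leukocyte classes, calls to the left in endothelial-like cells, and none in the main population.

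The genes whose levels ran most like each member over the 18 class sums (9 classes in 2 libraries, 6665 genes) were found by Pearson's r of log2(CPM + 1). These sums share 2 libraries and differ in depth, so r is a description only. Prkcq ran with Sidt1 (0.972) and the cytokine gene Ifng (0.971), and Prkch with the endothelial and blood transcription factor Fli1 (0.969), Klhl6 (0.935) and Itpkb (0.925). Prkcd ran with Nsf (0.964), Bcl2a1a (0.962) and Nfam1 (0.955), and Prkcb with the exchange factor Vav1 (0.953), Pag1 (0.936) and Cd84 (0.928). Prkca had Adamts6 (0.936), Rev3l (0.906) and Stk39 (0.891), and Prkce had Chic2 (0.858), Smurf2 (0.831) and Btbd7 (0.820). Prkci ran with Snx27 (0.840), Epb41l1 (0.833) and Usp33 (0.825), and Prkcz with the T cell receptor gene Cd3e (0.885), Frmd5 (0.881) and Nmi (0.878), but both members lay below the filter on level applied to the other genes.

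The wider pathway was read from 7 lists with 78 genes in all: other PKC and PKN kinases, phospholipases C, regulators of priming and shut-off, substrates and anchors, the atypical PKC polarity complex, the CARD-BCL10-MALT1 module and the phagocyte NADPH oxidase. In the main population 9 of 76 measured list genes were called higher and 4 lower, where 3.85% and 4.75% of all genes were. The median log2 ratio was 0.04 for the list genes and -0.03 for all genes. Of these 13 called genes 12 stood below 10% of their highest class, and the highest level among the 13 was 5.16 CPM, that of Btk in control (3.38 CPM in PKCi). The oxidase subunit gene Cybb was at 1.27 CPM in PKCi and 0.483 CPM in control, while the macrophage markers summed to 45.7 and 34.2 CPM there, and their part in it was not tested. The remaining called gene, the phospholipase C gene Plch2, was at 0.118 CPM in PKCi and 0.211 CPM in control.

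In macrophage-like cells 10 of 59 measured list genes were called higher and 2 lower, where 10.0% and 4.80% of all genes were, and the median log2 ratio was 0.14 for the list genes and 0.06 for all genes. Phlpp1, a phosphatase that removes priming phosphates from PKC, was at 208 CPM in PKCi and 67.5 CPM in control (3.08, 2.71 to 3.52). Cybb, the catalytic oxidase subunit, was at 654 and 271 CPM (2.42, 2.26 to 2.58), and 2 of 6 oxidase genes were called higher. Plcg1, a phospholipase C, was at 7.56 and 2.88 CPM (2.62, 1.38 to 5.41), and the polarity gene Pard3b at 10.1 and 1.92 CPM (5.27, 2.53 to 12.7), which is 9.19% of its highest class. Wwc1 (0.371) and Pkn3 (0.378), a PKC-related kinase, were called lower, both at under 10 CPM.

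In monocyte-like cells 5 of 56 measured list genes were called higher and 3 lower, where 11.2% and 5.92% of all genes were, with medians of 0.15 for both. Add3, a cytoskeletal PKC substrate, was at 84.5 CPM in PKCi and 43.9 CPM in control (1.92), and the oxidase subunit Ncf1 at 126 and 71.0 CPM (1.78). Plcb2, a phospholipase C gene, was at 18.4 and 7.96 CPM (2.31). Sqstm1, an adaptor that binds atypical PKC, was called lower at 170 and 281 CPM (0.604), Marcksl1, a MARCKS-type substrate, at 134 and 207 CPM (0.648), and Wwc1 at 4.34 and 13.7 CPM (0.318).

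In neutrophil-like cells 5 of 40 measured list genes were called higher and 1 lower, where 17.8% and 6.97% of all genes were, with a median log2 ratio of 0.27 for the list genes and 0.19 for all genes. The CARD-BCL10-MALT1 list gave 3 of 9 measured genes called higher. Malt1, the module's protease, was at 448 CPM in PKCi and 157 CPM in control (2.86, 2.28 to 3.58), and the kinase Btk at 102 and 42.0 CPM (2.43). Marcksl1 was at 590 and 260.0 CPM (2.27) and Add3 at 42.6 and 11 CPM (3.87). Cybb was called lower at 62.4 and 107 CPM (0.583), and 0 of 6 oxidase genes were called higher, with a list median of -0.48. The neutrophil-like cluster make-up given above applies to these values as well. Of these 4 classes, the share of list genes called higher was above that of all genes in the main population and in macrophage-like cells and below it in the others.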

How the data were processed

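The deposited files hold raw counts of UMIs per gene and cell barcode. The authors made them in Cell Ranger 7.0.0, per the file headers. The submitters' processing notes name GRCm38 and Seurat without saying what Seurat was used for. Whether intronic reads and strand entered the counts is not given in the sources used here.

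Barcodes with under 500 genes (200 PKCi and 247 control) or over 20% mitochondrial UMIs (47 and 61) were removed, as were cells with a Scrublet score over 0.25 (206 and 157 further barcodes), a threshold set after seeing the data because the automatic one called almost none in control. Before these filters the barcodes held 229219749 UMIs in PKCi and 222641855 in control. Both libraries were clustered together with scanpy 1.11.5 (python 3.11.15, igraph 0.11.9) from 2000 variable genes, 30 components and 15 neighbours at Leiden resolution 1.0, and mixed clusters were split at 0.5. A cluster was named where its marker score reached 0.3 with at least 3 markers at 50 CPM and Krt8 under 250 CPM, cut-offs also set after seeing the data. UMIs were then summed per class and library. Poisson intervals and conditional binomial ratio intervals came from scipy 1.17.1. The ratio procedure was tested on simulated data. The simulated sums were Poisson draws, the counting error that the intervals assume, with no spread between cells or libraries. That test therefore cannot show how calls behave under such spread.

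The members and the pathway lists were chosen with earlier results of these data known. List genes are named by a fixed rule: up to 4 with the highest and 4 with the lowest ratio among those called, in classes of at least 100 cells per library, with other named genes chosen after their values were seen. Genes alike to a member are the 3 with the highest r among genes with at least 200 UMIs and 50 CPM. Some genes that these rules name are not reported here. Alternatives covered the cell filters, doublets, clustering, weighting, thresholds and scaling. The neutrophil-like and T-like splits were added after seeing the data.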

Additional observations from a re-analysis of the deposited data

Results flagged for a closer look

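Prkce and Prkch were called in opposite directions in different classes, and the difference between classes was not tested. The PKCi over control ratio of Prkce was 1.84 in neutrophil-like cells and 4.44 in dendritic-like cells, against 0.652 in endothelial-like cells. That of Prkch was 1.55 in neutrophil-like cells and 0.636 in endothelial-like cells. The dendritic-like ratio rests on 3 control UMIs. The neutrophil-like calls ended relative to the median gene, at 1.62 for Prkce and 1.36 for Prkch. Within the G0s2-led and Cstdc4-led neutrophil-like clusters the ratios of both genes lay on either side of 1, with intervals that included 1. In neutrophil-like cells Prkch was called under 6 of 12 settings, some of which, named below, could not end a call. The endothelial-like calls ended without the cell with the most UMIs of the gene, at 0.923 for Prkce and 0.752 for Prkch.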

How the results depend on the processing

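Over the alternatives, 320 of 330 log2 ratios of members kept their direction, and the other 10 belonged to ratios that were not called. Prkcb and Prkcd in neutrophil-like cells and Prkca and Prkcq in NK-like cells were called under 12 of 12 settings, and Prkca, Prkcb and Prkce in dendritic-like cells under 10 of 10. No dendritic-like class formed with at least 1000 genes per cell or with clustering that left out PKC and pathway genes, so these calls have no value there. No monocyte-like class formed at Leiden resolution 0.5, where the macrophage-like class held 1078 PKCi and 801 control cells. The monocyte-like counts below leave that setting out. With clustering that left out PKC and pathway genes, the monocyte-like class held 65 PKCi and 142 control cells. The neutrophil-like class held 19 PKCi and 152 control cells with at least 1000 genes per cell. In neutrophil-like cells Prkce was called under 9 of 12 settings (1.17 to 2.84) and Prkch under 6 of 12 (1.35 to 2.02). Prkcb in NK-like cells was called under 11 of 12 and Prkcq in T-like cells under 9 of 12. Prkca was called under 12 of 13 settings in macrophage-like and 11 of 12 in monocyte-like cells. Prkcb was called under 10 of 13 settings in macrophage-like cells (1.48 to 1.66) and 7 of 12 in monocyte-like cells (1.24 to 1.59), and Prkcd in macrophage-like cells under 9 of 13 (1.32 to 1.67). In endothelial-like cells Prkch was called under 8 of 12 and Prkce under 6 of 12. Each of these counts includes settings that could not end a member's call. They are the lower fold threshold, no minimum of UMIs for members, and a minimum of 100 UMIs for list genes. Weighting each cell equally could end a call through its ratio alone, because the interval of the reported ratio was kept. Members called came to 0 in the main population, 2 in monocyte-like, 3 in macrophage-like and 4 in neutrophil-like cells as reported, and list genes called to 13, 8, 12 and 6. Members called in monocyte-like cells came to 1 with at most 10% mitochondrial UMIs, with doublets kept, with clustering that left out PKC and pathway genes, with each cell weighted equally, or with ratios scaled to the median gene. In macrophage-like cells they came to 1 at 10% mitochondrial UMIs or scaled to the median gene. In neutrophil-like cells they came to 2 with at least 1000 genes per cell or scaled to the median gene. List genes called in neutrophil-like cells came to 10 at 1000 genes, 10 at 10% mitochondrial UMIs, 16 at Leiden resolution 0.5 and 16 at the lower fold threshold tried, where monocyte-like cells gave 14 and macrophage-like cells 21. In the main population they came to 8 with at least 100 UMIs per gene. The cause was not tested. No paired analysis was possible because each group has 1 library.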

Other observations

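Over the 18 class sums, the members most alike were Prkcq and Prkcz (Pearson's r of log2(CPM + 1) 0.635), Prkch and Prkcq (0.598) and Prkcb and Prkcd (0.591), and the least alike were Prkch and Prkci (-0.638) and Prkca and Prkcd (-0.617). These sums share 2 libraries, and r is a description only.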
